A study of Mus musculus with 29 samples.

Results

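The genes described here are those of the Wnt pathway that carry or receive the signal or feed back on it. They were chosen by symbol: every Wnt ligand, Frizzled receptor (Fzd), secreted Frizzled-related protein (Sfrp) and Dickkopf (Dkk) gene, with Lef1, Axin2, Wif1, Lgr5 and Nkd1, that had a transcript cluster annotated with that single symbol. The rule used no measured value except to prefer the cluster with the highest mean, and each gene found had 1 cluster. It found 42 of the 30142 genes on the array: 19 ligands, 10 Frizzled receptors, the co-receptor Lgr5, 9 secreted inhibitors, and Axin2, Lef1 and Nkd1. Tcf7 is not analysed here.

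RNA of mouse cells in culture was hybridised to 29 Clariom D arrays, 1 per sample, in a study of estrogen receptor beta (gene Esr2) during neural differentiation. Cells came from a line labelled BERKO, a knockout of that receptor, and from a wild-type (WT) line, all grown without feeder cells. The stages were undifferentiated embryonic stem cells in medium with LIF (mESC), neural precursors expanded with FGFb and laminin (NPC), midbrain neural precursors given FGFb, FGF8b, Shh and ascorbic acid (mDPC), and cells matured with ascorbic acid and labelled midbrain neurons (MN). NPC and mDPC received 0.5 nM LY3201, an agonist selective for estrogen receptor beta, or the vehicle DMSO for 4 days. LY3201 arrays of MN exist as well, with the length of treatment not given in the labels. Each of the 14 groups held 2 arrays, except untreated BERKO MN with 3. The labels name neither the number of clones behind a line nor how the knockout was made. Arrays without LY3201 are called untreated, those with vehicle included.

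Wnt proteins are secreted lipid-modified ligands that bind a Frizzled receptor together with Lrp5 or Lrp6. In the branch through beta-catenin, the receptor complex stops the destruction of beta-catenin, which then acts with TCF and LEF factors on target genes. Several of those targets, among them Axin2 and Nkd1, dampen the signal, and secreted Sfrp, Dkk and Wif1 proteins block it outside the cell. In the developing midbrain, Wnt1 and Wnt5a are known for their part in the formation of dopaminergic neurons, and Wnt signalling helps to keep cultured embryonic stem cells undifferentiated.

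Esr2 itself went against the label. Its cluster read 3.80 to 4.46 on the log2 scale in the 15 arrays labelled BERKO, against 3.21 to 3.47 in the 14 arrays labelled WT. All these levels lay among those of the negative controls, and whether the probes lie in the deleted part was not given. BERKO and WT therefore name the labels throughout. The other stage labels were set against marker genes: the mean of 6 pluripotency genes was 14.06 to 14.10 in BERKO mESC, at most 14.09 in WT mESC and 3.81 to 4.59 at the later stages. Of 6 midbrain dopaminergic genes, 0 had a group mean above the 95th percentile of negative controls of every array, so that the label MN names the stage. The 2 untreated WT MN arrays stood apart from each other, with means of 8.15 and 10.15 over 6 neuronal genes, and the genotype counts in MN are given without each.

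Values are log2 intensities as deposited, and the 5222 negative controls give the scale of background. Their 95th percentile lay between 6.632 and 7.661 by array. Tests were run on genes that were brighter than the median cluster on 2 or more arrays, which kept 22063 genes and 32 of the 42 Wnt genes. The genes left out were the ligands Wnt1, Wnt2, Wnt2b, Wnt3a, Wnt6, Wnt10a, Wnt10b and Wnt16 and the inhibitors Dkk2 and Dkk4. Differences below are of group means, first group minus second, ± SE from 1 limma fit to all arrays, with Benjamini-Hochberg adjusted p over all tested genes and a threshold of 0.05. Whether replicate arrays came from separate animals, clones or cultures is not in the labels. In their titles the BERKO mESC arrays share the number 56, and the WT NPC arrays with LY3201 the number 54, 1 array of each pair with a decimal added, so that each pair may be 1 culture. With each pair averaged as 1 sample, 4 of the calls below were lost and are named where they occur. A level in bulk RNA does not tell fewer cells of a type from less RNA per cell.

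Promoter sequences are shown for 4 of the genes. They were picked with their values known: Nkd1 and Fzd9 because their difference between the lines, in NPC and in mDPC, lay above background in both lines and held in every fit run, and Wnt11 and Wnt5b because they hold the core motif bound by TCF and LEF factors. Each runs from 250 bases before to 50 after a transcription start in RefSeq on GRCm38.p6, written 5′ to 3′ on the gene's strand. They lie at chr8:88527383-88527682 (plus strand) for Nkd1, chr5:135250998-135251297 (minus) for Fzd9, chr7:98834862-98835161 (plus) for Wnt11 and chr6:119449337-119449636 (minus) for Wnt5b. Capitals mark the motif ATCAAAG, or CTTTGAT where it reads on the other strand.
Nkd1: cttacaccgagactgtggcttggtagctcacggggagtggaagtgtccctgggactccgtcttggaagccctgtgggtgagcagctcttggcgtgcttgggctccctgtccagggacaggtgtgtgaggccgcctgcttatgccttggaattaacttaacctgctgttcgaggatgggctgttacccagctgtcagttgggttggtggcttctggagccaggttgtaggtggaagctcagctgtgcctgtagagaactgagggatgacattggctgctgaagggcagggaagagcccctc
Fzd9: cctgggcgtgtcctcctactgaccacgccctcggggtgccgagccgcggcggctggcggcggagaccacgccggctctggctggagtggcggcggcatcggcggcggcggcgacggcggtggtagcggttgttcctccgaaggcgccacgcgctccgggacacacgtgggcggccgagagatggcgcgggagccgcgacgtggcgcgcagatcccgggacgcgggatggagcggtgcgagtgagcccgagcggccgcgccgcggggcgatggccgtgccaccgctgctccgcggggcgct
Wnt11: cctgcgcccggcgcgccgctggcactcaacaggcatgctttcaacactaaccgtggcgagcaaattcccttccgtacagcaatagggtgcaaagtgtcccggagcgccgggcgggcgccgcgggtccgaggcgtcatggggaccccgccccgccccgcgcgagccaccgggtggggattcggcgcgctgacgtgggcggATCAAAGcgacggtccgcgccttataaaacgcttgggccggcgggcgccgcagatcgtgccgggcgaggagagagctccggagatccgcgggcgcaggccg
Wnt5b: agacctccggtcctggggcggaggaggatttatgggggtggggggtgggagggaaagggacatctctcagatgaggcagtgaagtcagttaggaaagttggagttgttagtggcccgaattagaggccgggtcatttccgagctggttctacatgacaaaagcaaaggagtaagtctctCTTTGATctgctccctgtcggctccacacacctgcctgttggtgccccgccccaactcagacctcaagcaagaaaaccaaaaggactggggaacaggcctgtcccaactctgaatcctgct
The motif began at position -51 from the start in Wnt11 and at position -71 in Wnt5b. Of the 42 genes, 29 had a promoter in the RefSeq table, and 2 of these 29 (6.9%) held the motif in at least 1 promoter. Over all genes with a promoter of that length, 1160 of 27025 held it (4.29%), and over single promoters 1225 of 32851 (3.73%). These letters do not occur in the windows shown for Nkd1 and Fzd9. Both Wnt11 and Wnt5b have other promoters in the table, without a match. The values of these 4 genes follow with their groups.

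Levels of different probes are not compared here, but each gene's level was set against the background. A group mean above the 95th percentile of negative controls of every array was reached by 10 genes: the receptors Fzd2, Fzd3, Fzd5, Fzd6, Fzd7, Fzd8 and Fzd9, the co-receptor Lgr5, the inhibitor Sfrp1 and the feedback gene Nkd1. No ligand reached it, and 29 of the 42 genes never exceeded that percentile of their own array. Fzd2 was the 1 gene above it in all 29 arrays. The widest ranges of group means were those of Fzd3 (8.85), Sfrp1 (8.79), Fzd5 (5.64) and Fzd9 (5.62), and the narrowest that of Wnt10a (0.20).

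**Figure D1:**
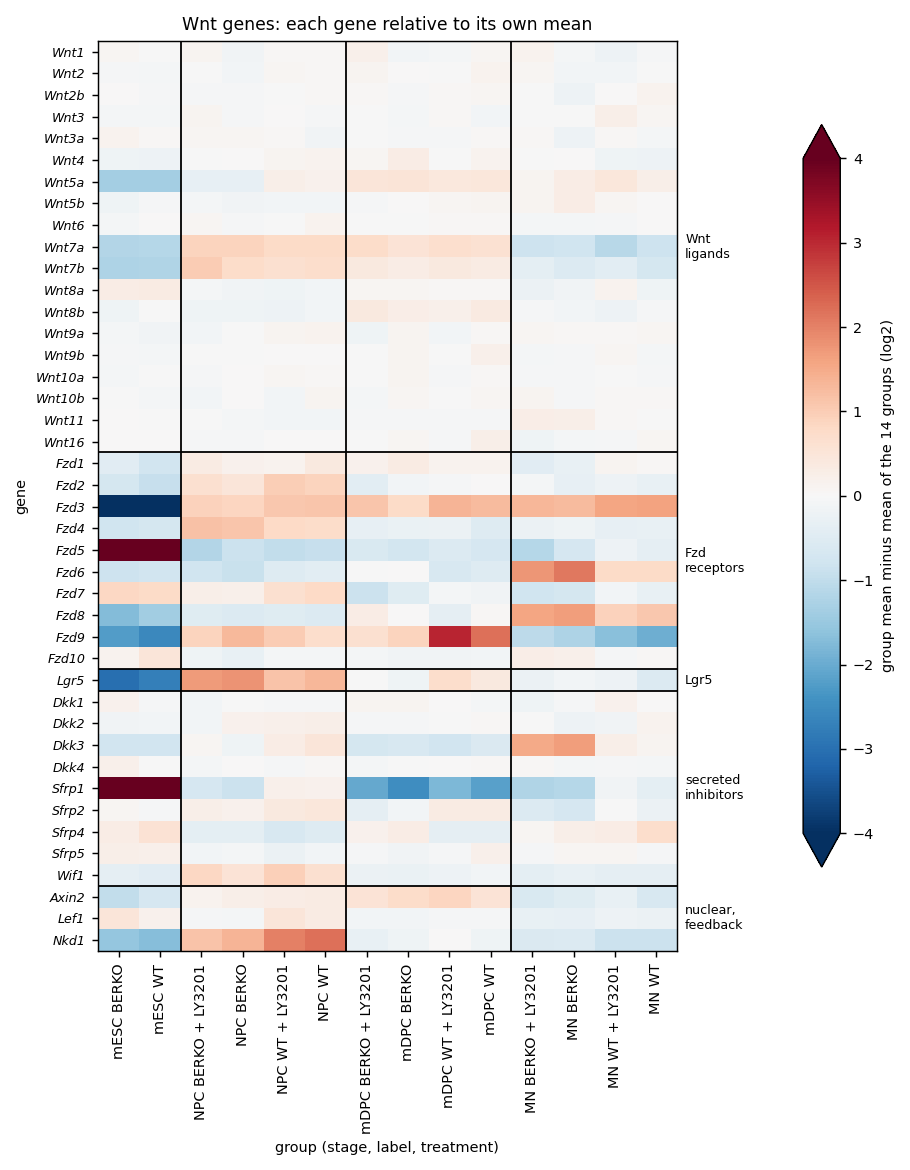
Group means of the Wnt genes by role (rows) in the 14 groups (columns), as log2 difference from the gene's own mean over the groups, with colours ending at 4 in either direction. Fzd3 is low in both mESC groups and high in every later group, while Sfrp1 and Fzd5 are high in mESC alone.

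The first comparison follows differentiation, as the change at each step in each line. Leaving mESC for NPC, cells gained the receptors Fzd3 and Fzd9, the co-receptor Lgr5 and the feedback gene Nkd1, and lost Sfrp1 and Fzd5. From NPC to mDPC, Nkd1, Lgr5 and Sfrp1 fell in both lines. From mDPC to MN, Fzd9, Wnt7a and Axin2 fell, and Fzd6, Fzd8, Dkk3 and Sfrp1 rose, in both lines. Each step uses the arrays of a stage that the next step uses again. Cell markers moved at the steps as well. From NPC to mDPC, the mean of 5 proliferation genes fell from 12.20 to 5.11 in BERKO and from 11.26 to 6.45 in WT. That of 6 astrocyte genes rose from 8.74 to 11.57 in BERKO and from 8.81 to 11.59 in WT. The label mDPC thus names the stage, as MN does. What these cells add to the step changes of the Wnt genes was not tested.

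These steps changed a large share of the whole array, and the counts of Wnt genes are read against it. From mESC to NPC, 14 of the 32 tested genes rose and 7 fell in BERKO (65.6% of those tested). Of all tested genes 63.5% were called at this step in BERKO, 27.7% higher and 35.9% lower. In WT, 17 rose and 5 fell (68.8%), where 62.9% of all tested genes were called, 27.9% higher and 35% lower. Between NPC and mDPC, 6 rose and 9 fell in BERKO (46.9%), against 35.4% of all tested genes, 16.5% higher and 18.9% lower. WT had 3 rises and 10 falls there (40.6%), against 30.4%, 14.6% higher and 15.8% lower. Between mDPC and MN, 8 rose and 10 fell in BERKO (56.2%), against 50.9%, 20.1% higher and 30.8% lower. WT had 6 rises and 10 falls there (50%), against 42%, 18% higher and 24% lower. With the arrays brought to equal quantiles, the last WT split became 8 and 8. The median change of the 32 genes from mESC to NPC was 0.08 in BERKO and 0.34 in WT, beside medians over all tested genes of -0.10 in BERKO and -0.04 in WT.

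Fzd3, a receptor known for axon guidance in the brain, had the widest range. Fzd3 read 4.74 and 4.87 in mESC, 12.90 and 12.89 in NPC, 12.67 and 12.95 in mDPC and 13.33, 13.16 and 13.39 in MN of BERKO. Fzd3 in WT read 5.13 and 4.78 in mESC, 13.12 and 13.16 in NPC, 13.39 and 13.20 in mDPC and 13.73 and 13.58 in MN. The mESC arrays were below background and all later arrays far above it. The rise into NPC was 8.09 ± 0.13 in BERKO (adjusted p = 1.65e-20) and 8.19 ± 0.13 in WT (adjusted p = 1.48e-20). Taken against the background of the mESC arrays, this is at least 42-fold in BERKO and at least 49.6-fold in WT. LY3201 arrays lay between 12.94 and 13.46 in BERKO and between 13.00 and 13.66 in WT.

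Fzd5 ran the other way. Fzd5 read 9.96 and 10.05 in mESC, 4.78 and 4.76 in NPC, 4.92 and 4.83 in mDPC and 5.03, 4.82 and 5.03 in MN of BERKO. Fzd5 in WT read 10.23 and 9.95 in mESC, 4.59 and 4.82 in NPC, 4.96 and 4.95 in mDPC and 5.29 and 5.21 in MN. Only the 4 mESC arrays exceeded background. The difference of NPC from mESC was -5.24 ± 0.12 in BERKO (adjusted p = 3.06e-18) and -5.38 ± 0.12 in WT (adjusted p = 2.04e-18). It amounts to levels at least 6.35-fold lower in BERKO NPC and at least 6.2-fold lower in WT NPC.

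Fzd9, a Frizzled receptor, was high in NPC and mDPC. Fzd9 read 6.59 and 6.52 in mESC, 10.04 and 10.13 in NPC, 9.63 and 9.70 in mDPC and 7.54, 7.71 and 7.40 in MN of BERKO. Fzd9 in WT read 6.43 and 5.96 in mESC, 9.66 and 9.29 in NPC, 11.33 and 10.61 in mDPC and 6.86 and 6.81 in MN. NPC arrays were thus above mDPC arrays in BERKO and below them in WT. With LY3201, Fzd9 read 9.35 and 9.98 in NPC, 9.21 and 9.60 in mDPC and 7.56 and 7.91 in MN of BERKO. With LY3201, WT gave 9.67 and 9.91 in NPC, 11.77 and 11.86 in mDPC and 7.16 and 7.06 in MN for Fzd9. The rise into NPC was at least 5.98-fold in BERKO (3.53 ± 0.22 on the log2 scale) and at least 3.9-fold in WT (3.28 ± 0.22). The rise from NPC to mDPC passed the test in WT (1.50 ± 0.22, adjusted p = 3.12e-05). Into MN, Fzd9 fell in BERKO (-2.11 ± 0.20, adjusted p = 4.36e-08) and in WT (-4.13 ± 0.22, adjusted p = 1.42e-11).

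Of the other receptors, Fzd6 and Fzd8 rose late. Fzd6, known from planar polarity and hair patterning, read 5.74 and 5.73 in mESC, 5.70 and 5.67 in NPC, 6.61 and 6.53 in mDPC and 8.79, 8.62 and 8.63 in MN of BERKO. Fzd6 in WT read 5.77 and 5.80 in mESC, 6.14 and 6.12 in NPC, 5.97 and 6.16 in mDPC and 7.41 and 7.23 in MN. It exceeded background in the MN arrays of both lines. Fzd6 rose from mDPC to MN by 2.11 ± 0.10 in BERKO (adjusted p = 1.74e-12) and by 1.25 ± 0.11 in WT (adjusted p = 2.51e-08). Against the background of the mDPC arrays that is at least 2.84-fold in BERKO and at least 1.03-fold in WT. Its rise from NPC to mDPC (0.89 ± 0.11, adjusted p = 3.49e-06) passed in BERKO, at levels below background.

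Fzd8 read 7.75, 7.84 and 7.67 in BERKO MN, against 5.99 and 6.18 in BERKO mDPC. Fzd8 in WT read 7.09 and 7.23 in MN, against 5.89 and 6.35 in mDPC. It rose into MN by 1.67 ± 0.20 in BERKO (adjusted p = 7.24e-07) and by 1.04 ± 0.22 in WT (adjusted p = 5.70e-04). The mDPC levels were below background, so the rise was at least 1.49-fold in BERKO, and in WT no fold can be given. The earlier Fzd8 levels, 4.26 to 4.78 in mESC and 5.29 to 5.78 in NPC, were below background.

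Fzd2 and Fzd7 were measured above background at most stages. Fzd2 read 7.68 and 8.07 in mESC, 9.02 and 9.13 in NPC, 8.52 and 8.44 in mDPC and 8.24, 8.57 and 7.92 in MN of BERKO. Fzd2 in WT read 7.67 and 7.66 in mESC, 9.31 and 9.65 in NPC, 8.65 and 8.55 in mDPC and 8.28 and 8.30 in MN. NPC was the highest stage in both lines, with a rise from mESC of 1.20 ± 0.18 in BERKO (adjusted p = 6.36e-06) and 1.82 ± 0.18 in WT (adjusted p = 2.19e-08). Fzd7, a receptor used by stem cells, read 8.49 and 8.37 in mESC, 7.83 and 7.75 in NPC, 7.10 and 7.13 in mDPC and 7.09, 7.12 and 6.48 in MN of BERKO. Fzd7 in WT read 8.44 and 8.31 in mESC, 8.43 and 8.37 in NPC, 7.53 and 7.38 in mDPC and 7.30 and 7.33 in MN. It fell from NPC to mDPC in BERKO (-0.67 ± 0.19, adjusted p = 0.00869, at least 1.53-fold and lost without BERKO NPC array 1) and WT (-0.94 ± 0.19, adjusted p = 7.39e-04). It fell from mESC to NPC in BERKO as well (-0.64 ± 0.19, adjusted p = 0.00616).

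The remaining receptors never exceeded the 95th percentile of negative controls of their own array. Fzd1 ranged from 5.51 to 6.94, Fzd4 from 4.38 to 6.62 and Fzd10 from 5.15 to 6.23. Fzd4, a receptor for norrin as well as Wnts, rose into NPC by 1.91 ± 0.15 in BERKO and 1.43 ± 0.15 in WT. It fell again into mDPC (-1.36 ± 0.15 in BERKO, adjusted p = 7.65e-07, and -1.23 ± 0.15 in WT, adjusted p = 4.05e-06).

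Lgr5, a receptor for R-spondins that raises the response to Wnt and marks stem cells in several epithelia, was highest in NPC. Lgr5 read 4.19 and 4.14 in mESC, 8.92 and 9.04 in NPC, 6.95 and 7.09 in mDPC and 6.92, 7.14 and 7.15 in MN of BERKO. Lgr5 in WT read 4.46 and 4.43 in mESC, 8.43 and 8.58 in NPC, 7.68 and 7.47 in mDPC and 6.59 and 6.70 in MN. Its rise into NPC, 4.81 ± 0.12 in BERKO and 4.06 ± 0.12 in WT, was at least 2.77-fold in BERKO and at least 1.99-fold in WT. It fell into mDPC in both lines (-1.96 ± 0.12 in BERKO, adjusted p = 1.88e-10, at least 3.49-fold, and -0.93 ± 0.12 in WT, adjusted p = 7.81e-06). Into MN, Lgr5 fell in WT (-0.93 ± 0.12, adjusted p = 4.00e-06, at least 1.64-fold), and the MN and mDPC arrays overlapped in BERKO.

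**Figure D2:**
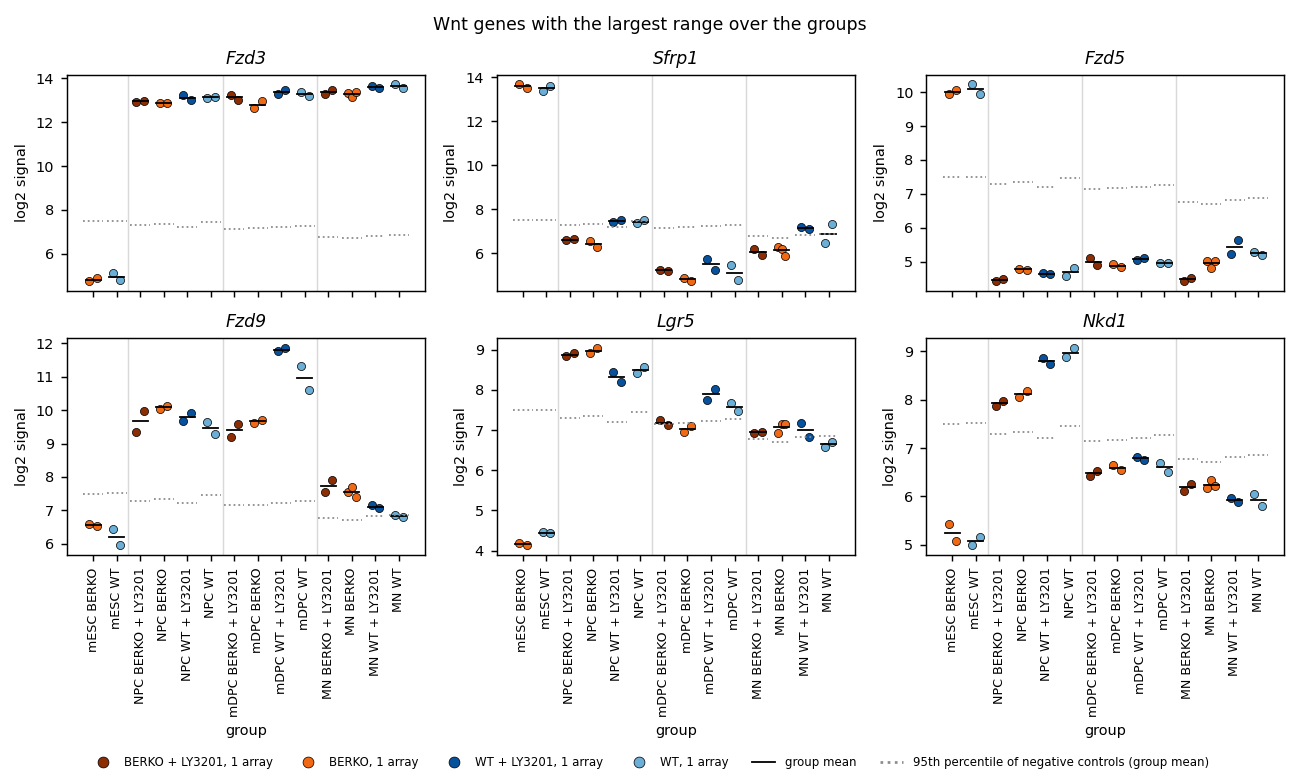
Log2 level of Fzd3, Sfrp1, Fzd5, Fzd9, Lgr5 and Nkd1 in each array (points) by stage, with BERKO and WT side by side, untreated and LY3201 arrays coloured separately, a line at each group's mean and a dotted line at the 95th percentile of negative controls. Fzd9 reads 9.63 and 9.70 in untreated BERKO mDPC and 11.33 and 10.61 in untreated WT mDPC.

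All 19 ligands stayed near or below background, so their changes are differences among dim levels. Wnt7a and Wnt7b, which act on brain vessels and synapses, showed the largest of them. Wnt7a read 7.09 and 6.85 in BERKO NPC, against 4.92 and 4.90 in BERKO mESC. In WT, Wnt7a read 6.80 and 6.91 in NPC, against 4.90 and 4.95 in mESC. It rose by 2.06 ± 0.13 in BERKO (adjusted p = 3.92e-11) and 1.93 ± 0.13 in WT (adjusted p = 1.05e-10), and Wnt7b by 1.94 ± 0.14 in BERKO and 1.91 ± 0.14 in WT. From mDPC to MN both fell in each line, Wnt7a with differences of -1.37 ± 0.12 in BERKO (adjusted p = 1.38e-08) and -1.43 ± 0.13 in WT (adjusted p = 3.77e-08).

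Wnt5a, the ligand most used outside the beta-catenin branch, exceeded the percentile of its own array in 2 of 29 arrays. Wnt5a read 5.93 and 6.07 in NPC and 6.77 and 6.94 in mDPC of BERKO. Wnt5a in WT read 6.60 and 6.43 in NPC and 6.84 and 6.73 in mDPC. All 8 of these arrays were above the mESC arrays, at 4.89 to 5.06 for both lines. Its rise into NPC was 1.03 ± 0.11 in BERKO (adjusted p = 8.66e-08) and 1.53 ± 0.11 in WT (adjusted p = 2.15e-10), and it rose further into mDPC in BERKO (0.85 ± 0.11, adjusted p = 4.50e-06). The other tested ligands, Wnt3, Wnt4, Wnt5b, Wnt8a, Wnt8b, Wnt9a, Wnt9b and Wnt11, had ranges of group means of at most 0.61. Wnt1 read 2.69 to 3.18 and was not tested.

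Sfrp1, which binds Wnts and Frizzleds outside the cell, was the inhibitor with the largest change. Sfrp1 read 13.68 and 13.51 in mESC, 6.56 and 6.28 in NPC, 4.89 and 4.72 in mDPC and 6.30, 6.21 and 5.87 in MN of BERKO. Sfrp1 in WT read 13.40 and 13.60 in mESC, 7.39 and 7.49 in NPC, 5.45 and 4.76 in mDPC and 6.47 and 7.31 in MN. It was far above background in mESC, and near or below it later. The difference of NPC from mESC was -7.18 ± 0.23 in BERKO (adjusted p = 7.27e-16), at least 76.4-fold lower, and -6.06 ± 0.23 in WT (adjusted p = 1.03e-14). It fell again into mDPC (-1.61 ± 0.23 in BERKO and -2.33 ± 0.23 in WT) and rose into MN (1.32 ± 0.21 in BERKO, adjusted p = 3.46e-05, and 1.79 ± 0.23 in WT, adjusted p = 3.38e-06).

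Dkk3, a divergent Dickkopf whose part in Wnt signalling is less settled than that of Dkk1, rose into MN. Dkk3 read 4.46 and 4.49 in mESC, 4.98 and 5.18 in NPC, 4.62 and 4.61 in mDPC and 6.88, 6.83 and 6.99 in MN of BERKO. Dkk3 in WT read 4.46 and 4.48 in mESC, 5.84 and 5.64 in NPC, 4.60 and 4.72 in mDPC and 5.37 and 5.35 in MN. The rise into MN was 2.28 ± 0.10 in BERKO (adjusted p = 2.63e-13) and 0.70 ± 0.11 in WT (adjusted p = 2.57e-05), with no fold against background in either line. Of all Dkk3 arrays, 4 exceeded background.

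The other inhibitors were dim throughout. Wif1, which binds Wnts directly, read 3.48 to 4.95, and rose into NPC by 0.91 ± 0.11 in BERKO and 1.08 ± 0.11 in WT. Sfrp4 read 3.44 to 4.94, with its lowest group mean in NPC and its highest in MN of WT. Sfrp2 ranged from 3.89 to 5.31, Sfrp5 from 3.71 to 4.42 and Dkk1 from 3.24 to 3.73.

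Among the feedback genes, Nkd1, which binds Dishevelled and dampens the signal, rose and fell with the NPC stage. Nkd1 read 5.42 and 5.07 in mESC, 8.06 and 8.19 in NPC, 6.64 and 6.54 in mDPC and 6.17, 6.33 and 6.22 in MN of BERKO. Nkd1 in WT read 4.99 and 5.15 in mESC, 8.88 and 9.07 in NPC, 6.70 and 6.51 in mDPC and 6.05 and 5.79 in MN. Its 8 NPC arrays, LY3201 included, were the 8 above background. Nkd1 rose into NPC by 2.88 ± 0.12 in BERKO (adjusted p = 2.60e-14) and 3.90 ± 0.12 in WT (adjusted p = 2.11e-16), which is at least 1.53-fold in BERKO and at least 2.76-fold in WT. It was lower in mDPC than in NPC by at least 1.93-fold in BERKO and at least 3.26-fold in WT.

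Axin2, the scaffold of the destruction complex and a common readout of beta-catenin signalling, changed less. Axin2 read 5.93 and 5.63 in mESC, 6.91 and 7.06 in NPC, 7.65 and 7.30 in mDPC and 6.24, 6.17 and 6.36 in MN of BERKO. Axin2 in WT read 6.08 and 6.10 in mESC, 7.11 and 7.03 in NPC, 7.44 and 7.18 in mDPC and 6.16 and 6.05 in MN. Both lines read higher in NPC and mDPC than at the ends. Axin2 exceeded background in 7 of 29 arrays, and in none of those of mESC or NPC. It rose into NPC by 1.21 ± 0.14 in BERKO (adjusted p = 2.82e-07) and 0.98 ± 0.14 in WT (adjusted p = 4.34e-06), and fell into MN (-1.22 ± 0.13 in BERKO and -1.21 ± 0.14 in WT). Lef1, a factor that carries beta-catenin to DNA, stayed between 2.94 and 3.84, among the levels of the negative controls.

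**Figure D3:**
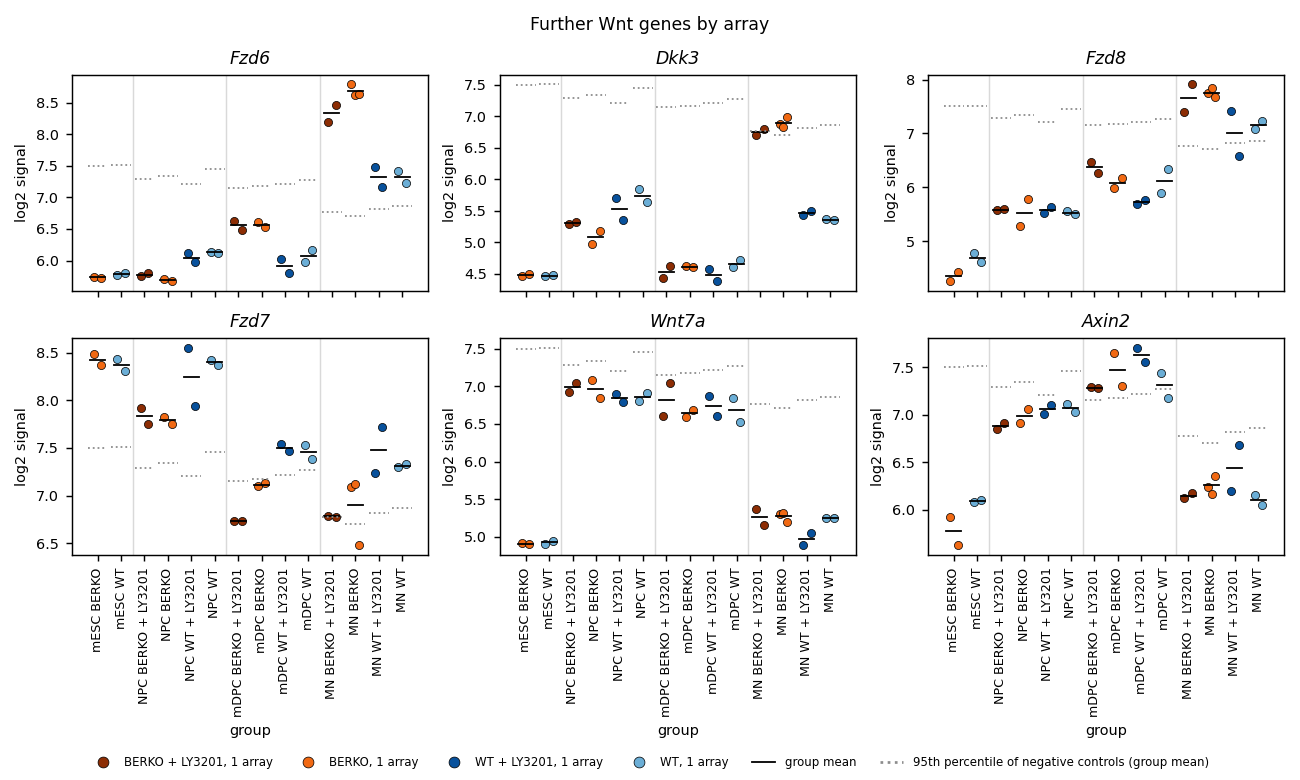
Log2 level of Fzd6, Dkk3, Fzd8, Fzd7, Wnt7a and Axin2 in each array (points) by stage, with BERKO and WT side by side, LY3201 arrays coloured separately and a dotted line at the 95th percentile of negative controls. BERKO MN arrays lie above WT MN arrays for Fzd6 (8.62 to 8.79 against 7.23 to 7.41, untreated) and Dkk3 (6.83 to 6.99 against 5.35 to 5.37).

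The second comparison set the lines against each other at each stage, which asks what loss of estrogen receptor beta does by the labels' design. In mESC 1 gene, Lef1, passed the test. In NPC, BERKO arrays had less Nkd1 and more Lgr5, both above background, and lower Sfrp1, Dkk3 and Wnt5a near or below it. In mDPC they had less Fzd9 and Lgr5 and more Fzd6, the last below background. In MN they had more Dkk3 and Fzd6.

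In mESC, 1 of 32 tested genes was called, and it was higher (3.12%). Of all tested genes, 4.21% were called, 1.68% higher and 2.53% lower. Lef1 read 3.75 and 3.83 in BERKO and 3.50 and 3.49 in WT, a difference of 0.30 ± 0.07 (adjusted p = 0.0234) within the range of the negative controls. It was lost when any of the 4 arrays was left out and when the BERKO pair was averaged (adjusted p = 0.131).

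In NPC, 1 gene was higher and 7 were lower in BERKO, which is 25% of those tested against 15.7% of all tested genes (10.6% higher and 5.08% lower). Nkd1 read 8.06 and 8.19 in BERKO NPC and 8.88 and 9.07 in WT NPC, both above background, and was lower (-0.85 ± 0.12, adjusted p = 3.70e-05). Sfrp1 read 6.56 and 6.28 in BERKO and 7.39 and 7.49 in WT (-1.02 ± 0.23, adjusted p = 0.00476). No array of one line reached those of the other for either gene, which held for 14 of the 32 tested genes. Dkk3 (-0.66 ± 0.11, adjusted p = 2.42e-04), Fzd7 (-0.61 ± 0.19, adjusted p = 0.0359), Wnt5a (-0.51 ± 0.11, adjusted p = 0.00303) and Fzd6 (-0.44 ± 0.11, adjusted p = 0.0104) were lower as well. Dkk3 and Nkd1 held in every fit run, but Dkk3 was not called in the LY3201 arrays of NPC. The Fzd7 call was lost when any single array was left out (-0.57 to -0.64). That of Fzd6 was lost without WT NPC array 1 or 2 or BERKO NPC array 2 (-0.43 to -0.45), and that of Wnt5a without WT NPC array 1 (-0.43). The Sfrp1 call was lost without BERKO NPC array 2 (-0.88). Lef1 was lower (-0.41 ± 0.07, adjusted p = 5.44e-04), opposite to its mESC difference. Dkk3, Fzd6, Wnt5a and Lef1 lay below background in both lines here, and Sfrp1 exceeded it in WT NPC array 2 alone. Lgr5, at 8.92 and 9.04 in BERKO and 8.43 and 8.58 in WT, was higher by 0.47 ± 0.12 (adjusted p = 0.012), a call that equal quantiles ended, leaving 0 genes higher and 8 lower. The Lgr5 call was also lost without WT NPC array 1 (0.40) or BERKO NPC array 2 (0.41). Without WT NPC array 1 or BERKO NPC array 2, 4 genes were called.

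Markers of mesenchyme moved with the NPC difference. The mean of 7 such genes was 5.24 to 5.33 in BERKO NPC and 7.09 to 7.16 in WT NPC, and 4 of the 7 were lower in BERKO. The defining collagen-binding gene Dcn averaged 6.06 in BERKO NPC and 10.93 in WT NPC. The mean of 5 proliferation genes was 12.13 to 12.27 in BERKO and 11.15 to 11.38 in WT, with all 5 higher. The part of these cells in the differences of the Wnt genes was not tested.

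In mDPC, 2 genes were higher and 3 lower in BERKO (15.6%), a share near the background of 13.8% of all tested genes (8.51% higher and 5.32% lower). Fzd9, at 9.63 and 9.70 in BERKO and 11.33 and 10.61 in WT, was lower (-1.30 ± 0.22, adjusted p = 3.52e-04), 2.47-fold with both groups above background. Lgr5 read 6.95 and 7.09 in BERKO and 7.68 and 7.47 in WT (-0.55 ± 0.12, adjusted p = 0.00383), at least 1.32-fold lower. Fzd3 was lower (-0.48 ± 0.13, adjusted p = 0.016). Fzd6 (0.51 ± 0.11, adjusted p = 0.00394) and Sfrp4 (0.65 ± 0.10, adjusted p = 1.03e-04) were higher, both at levels below background. The calls of Fzd3, Lgr5 and Fzd6 were lost without WT mDPC array 1 (-0.39, -0.45 and 0.41) or BERKO mDPC array 1 (-0.34, -0.49 and 0.46). That of Fzd3 was also lost with the compared groups alone (adjusted p = 0.0864), and Fzd3 was not called with LY3201. The mesenchymal list averaged 4.65 to 4.66 in BERKO mDPC and 4.81 to 4.84 in WT mDPC with 0 of 7 genes called. The proliferation list averaged 5.06 to 5.16 in BERKO and 6.43 to 6.46 in WT with 4 of 5 genes lower. The oligodendrocyte list averaged 6.63 to 6.74 in BERKO and 5.66 to 5.67 in WT, with 3 of 5 genes higher. The part of these lists in the differences was not tested.

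In MN, 8 genes were higher and 4 lower in BERKO, or 37.5% of those tested against 20.8% of all tested genes (13.5% higher and 7.31% lower). Dkk3, at 6.88, 6.83 and 6.99 in BERKO and 5.37 and 5.35 in WT, was higher by 1.54 ± 0.10 (adjusted p = 9.78e-10). Since the WT arrays were below background, the difference is at least 1.02-fold on that scale. Fzd6, at 8.79, 8.62 and 8.63 in BERKO and 7.41 and 7.23 in WT, was 2.57-fold higher (1.36 ± 0.10, adjusted p = 9.04e-09) with both groups above background. Fzd9 (0.72 ± 0.20, adjusted p = 0.0161), Fzd8 (0.59 ± 0.20, adjusted p = 0.0399), Lgr5 (0.42 ± 0.11, adjusted p = 0.01) and Nkd1 (0.32 ± 0.11, adjusted p = 0.038) were higher too.

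Both ligands whose promoters are shown for the motif were called in MN, but neither call held. Wnt11 read 3.59, 3.32 and 3.66 in BERKO and 3.30 and 3.21 in WT (0.27 ± 0.08, adjusted p = 0.0253). Wnt5b read 5.12, 4.99 and 5.14 in BERKO and 4.87 and 4.75 in WT (0.28 ± 0.10, adjusted p = 0.0477). All these levels were below background, and in the LY3201 arrays neither was called. The Wnt11 call was lost in 3 of the 5 fits that left out an array, the Wnt5b call in 4 of 5, and both with the compared groups alone. Sfrp1 read 6.30, 6.21 and 5.87 in BERKO MN and 6.47 and 7.31 in WT MN (-0.77 ± 0.21, adjusted p = 0.0135), the WT values being those of the 2 arrays that stood apart. Its difference was -0.35 without WT MN array 2 (adjusted p = 0.365) and -0.64 without BERKO MN array 3 (adjusted p = 0.0642), and both ended the call. Also lower in BERKO MN were Sfrp4 (-0.46 ± 0.09, adjusted p = 8.45e-04), Fzd3 (-0.36 ± 0.12, adjusted p = 0.036) and Fzd1 (-0.34 ± 0.12, adjusted p = 0.0486).

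The count in MN leaned on single arrays. Without WT MN array 1 it was 6, without WT MN array 2 it was 4, and without BERKO MN array 1 or 3 it was 7 or 6. Dkk3 and Fzd6 stayed called in each of these fits, Dkk3 with 1.49 to 1.57 and Fzd6 with 1.27 to 1.45. These were the 2 of the 12 calls that held in every fit run. The Nkd1 difference was 0.20 without WT MN array 2 (adjusted p = 0.386), and the Fzd9 call was lost without either WT MN array or BERKO MN array 2. Cell markers moved with this difference as well. Neuronal genes averaged 7.49 to 7.70 in BERKO MN and 8.15 to 10.15 in WT MN, with 6 of 6 lower. Mesenchymal genes averaged 4.61 to 4.76 in BERKO MN and 6.45 to 6.49 in WT MN, with 5 of 7 lower and 1 higher. Proliferation genes averaged 9.31 to 9.47 in BERKO MN and 8.40 to 8.70 in WT MN, with 5 of 5 higher. Of 6 astrocyte genes, 4 were higher and 1 lower, with means of 11.42 to 11.52 in BERKO MN and 11.20 to 11.41 in WT MN. Oligodendrocyte genes averaged 8.38 to 8.95 in BERKO MN and 8.78 to 9.33 in WT MN, with 1 of 5 higher and 2 lower. The part of any of these in the Wnt gene differences was not tested.

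**Figure D4:**
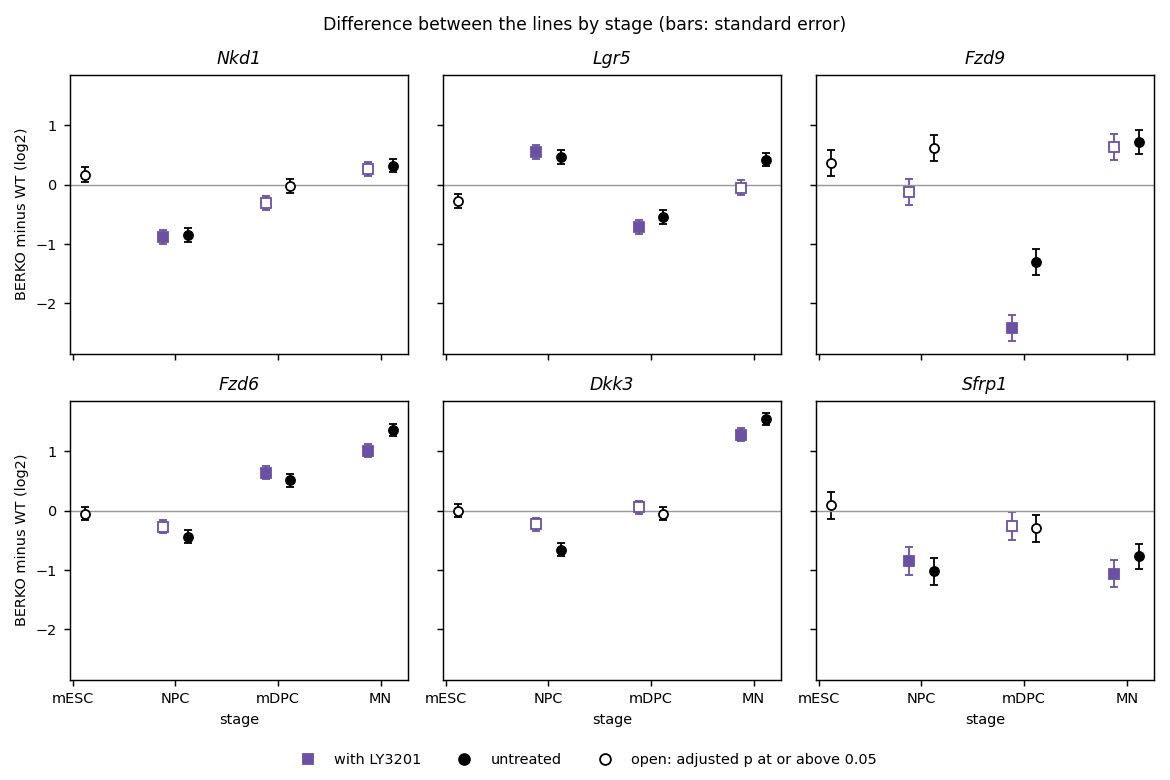
BERKO minus WT difference (log2, points) with its standard error (bars) by stage for Nkd1, Lgr5, Fzd9, Fzd6, Dkk3 and Sfrp1, in untreated arrays and LY3201 arrays, with open symbols where the adjusted p was not below 0.05. Fzd9 is below 0 in mDPC (-1.30) and above 0 in MN (0.72), untreated.

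The LY3201 arrays share no array with the untreated ones and repeat the comparison of the lines. In NPC, 1 gene was higher and 4 lower in BERKO (15.6%), against 10.4% of all tested genes, 4.56% higher and 5.81% lower. In mDPC, 2 were higher and 4 lower (18.8%), against 15.3%, 7.23% higher and 8.1% lower. In MN, 3 were higher and 7 lower (31.2%), against 19.6%, 9.01% higher and 10.6% lower. With equal quantiles the MN split became 6 and 5. Without BERKO NPC array 2 with LY3201 the NPC count was 3, and without WT MN array 2 or BERKO MN array 2 with LY3201 the MN count was 5 or 4. In NPC, 5 of the 8 genes called in untreated arrays were called again in the same direction, which is 62.5% of those and 100% of the 5 called with LY3201. These were Lef1, Lgr5, Nkd1, Sfrp1 and Wnt5a, of which Lef1, Nkd1 and Wnt5a held with LY3201 in every fit that tested them. Sfrp1 with LY3201 was lost when the WT pair was averaged (-0.85) and when any single array was left out (-0.82 to -0.89). Lgr5 with LY3201 was lost with the compared groups alone (0.55, adjusted p = 0.0585) and without WT or BERKO NPC array 2 (0.43 and 0.51). Over all genes called in NPC, 45.1% of the untreated and 68.1% of the LY3201 calls were shared in this way. In mDPC it was 4 of 5 (80%, and 66.7% of the 6 called with LY3201), namely Fzd6, Fzd9, Lgr5 and Sfrp4, against 68.4% and 61.7% over all genes. In MN it was 5 of 12 (41.7%, and 50% of the 10 called with LY3201), namely Dkk3, Fzd1, Fzd6, Fzd8 and Sfrp1, against 55% and 58.3% over all genes. Of these MN genes, Dkk3 and Fzd6 held in every fit in both sets of arrays. Without a filter, Fzd8 was lost in both sets (adjusted p = 0.0505 untreated and 0.0529 with LY3201) and Fzd1 in the untreated arrays (adjusted p = 0.0618). Untreated Fzd8 was also lost with equal quantiles and when any single MN array was left out (0.52 to 0.66). With LY3201 it was lost without WT MN array 2 (0.24) or BERKO MN array 2 (0.39). Untreated Fzd1 was lost without either WT MN array or BERKO MN array 1 or 3 (-0.25 to -0.43). With LY3201, Fzd1 was lost without WT or BERKO MN array 2 (-0.50 and -0.49). In these overlaps 0 of the Wnt genes were called in opposite directions. With so few genes the shares are a description.

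The cell markers moved again between the lines in the LY3201 arrays. Mesenchymal genes averaged 5.39 to 5.49 in BERKO NPC and 7.18 to 7.19 in WT NPC with 4 of 7 lower, and 4.63 to 4.86 in BERKO MN and 6.51 to 7.13 in WT MN with 5 of 7 lower and 1 higher. Proliferation genes were higher in BERKO NPC (4 of 5, 11.93 to 11.99, against 11.25 to 11.35 in WT NPC) and BERKO MN (3 of 5, 9.40 to 9.46, against 8.98 to 9.12 in WT MN). They were lower in BERKO mDPC (3 of 5, 5.03 to 5.23, against 6.52 to 6.68 in WT mDPC). Oligodendrocyte genes averaged 6.92 to 6.96 in BERKO mDPC and 5.75 to 5.82 in WT mDPC with 3 of 5 higher. Of the neuronal genes, 3 of 6 were lower in BERKO mDPC and 2 of 6 in BERKO MN. Their part in the repeated Wnt gene differences was not tested.

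Among the repeats, Nkd1 read 7.87 and 7.98 in BERKO NPC with LY3201 and 8.87 and 8.74 in WT NPC with LY3201 (-0.88 ± 0.12, adjusted p = 3.04e-05). Fzd9 read 9.21 and 9.60 in BERKO mDPC and 11.77 and 11.86 in WT mDPC with LY3201 (-2.41 ± 0.22, adjusted p = 1.87e-07), 5.31-fold lower. In MN with LY3201, Dkk3 read 6.70 and 6.80 in BERKO and 5.44 and 5.50 in WT (1.28 ± 0.11, adjusted p = 6.21e-08). No array of one line reached the other line's in these 3 comparisons. The same held for 21 of the 32 tested genes in NPC, 13 in mDPC and 23 in MN with LY3201. Sfrp1, at 6.21 and 5.93 in BERKO MN and 7.17 and 7.08 in WT MN with LY3201, was lower (-1.06 ± 0.23, adjusted p = 0.0031, at least 1.28-fold). Fzd6 was higher by 1.01 ± 0.11 (adjusted p = 2.71e-06) there. Called lower in BERKO in the LY3201 arrays of MN, and not called in the untreated ones, were Fzd5, Fzd7, Sfrp2, Wnt5a and Dkk1. Fzd5 read 4.44 and 4.52 in BERKO and 5.23 and 5.63 in WT (-0.95 ± 0.12, adjusted p = 1.09e-05), below background in both. The calls of Fzd7 (-0.70), Sfrp2 (-0.51), Wnt5a (-0.34) and Dkk1 (-0.34) were lost in some fits.

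How far the lines differ in a step was tested directly, as the step in BERKO minus the step in WT. For mESC to NPC, 1 gene was higher and 5 lower in this difference (18.8% of those tested), against 9.6% of all tested genes, 6.35% higher and 3.25% lower. For NPC to mDPC, 6 were higher and 2 lower (25%), against 8.68%, 3.68% higher and 4.99% lower. For mDPC to MN, 4 were higher and 1 lower (15.6%), against 12.5%, 7.31% higher and 5.15% lower. These 3 tests and the comparisons of the lines share arrays. Fzd9 rose from NPC to mDPC in WT and not in BERKO (-1.91 ± 0.32, adjusted p = 4.94e-04). It lost less from mDPC to MN in BERKO (2.02 ± 0.30, adjusted p = 1.18e-04). Dkk3 rose more into MN (1.58 ± 0.15, adjusted p = 4.29e-07). Nkd1 rose less into NPC (-1.03 ± 0.17, adjusted p = 3.95e-04) and then fell less into mDPC (0.84 ± 0.17, adjusted p = 0.00266). Lgr5 rose more into NPC (0.75 ± 0.17, adjusted p = 0.00844) and fell more into mDPC (-1.03 ± 0.17, adjusted p = 6.43e-04). Into MN, Lgr5 fell in WT and not in BERKO (0.98 ± 0.17, adjusted p = 4.21e-04). Leaving out WT NPC array 1 brought the count for the first step to 3. With the BERKO mESC pair averaged, the first-step differences of Sfrp1 (-1.11, adjusted p = 0.109) and Wnt5a (-0.50, adjusted p = 0.104) were lost. Without WT NPC array 1, BERKO NPC array 1 or WT mDPC array 1, the count for the second step was 5.

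LY3201 itself moved few of these genes. Of the 32 tested, 1 passed in the 6 comparisons of LY3201 with untreated arrays: Sfrp4 in WT MN, at 4.40 and 4.43 with LY3201 and 4.94 and 4.71 untreated (-0.41 ± 0.10, adjusted p = 0.0394). Of all tested genes, 1.83% were called there, and both Sfrp4 groups lay below background. The call was lost without WT MN array 1 or either LY3201 array. In the other 5 comparisons limma called 0 of the genes, beside 0% of all tested genes in BERKO NPC, 0.00453% in WT NPC, 0.113% in BERKO mDPC, 0.0635% in WT mDPC and 0.344% in BERKO MN. At an unadjusted p under 0.05 there were 3 in BERKO NPC, 2 in WT NPC, 3 in BERKO mDPC, 3 in WT mDPC, 2 in BERKO MN and 4 in WT MN.

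The intervals were read for the genes above background in every array of both groups, since a signal at background does not bound a change in RNA. There were 6 such genes in BERKO NPC, 6 in WT NPC, 4 in BERKO mDPC, 5 in WT mDPC, 6 in BERKO MN and 4 in WT MN, with Fzd2 and Fzd3 in each. Their 95% confidence intervals lay within 2-fold in either direction except for Fzd9 in WT mDPC, at 11.77 and 11.86 with LY3201 and 11.33 and 10.61 untreated in WT mDPC (0.85 ± 0.22, interval 0.38 to 1.31, adjusted p = 0.149). In BERKO mDPC the Fzd9 difference was -0.26 ± 0.22, and the difference between the lines (-1.10 ± 0.32, adjusted p = 0.369) did not pass. Outside that set, Fzd5 in BERKO MN lay below background, at 4.44 and 4.52 with LY3201 and 5.03, 4.82 and 5.03 untreated (-0.48 ± 0.11, adjusted p = 0.0654). It passed without BERKO MN array 2 (-0.55, adjusted p = 0.025), and the Fzd5 difference between the lines (-0.66 ± 0.16, adjusted p = 0.0683) passed without that array or without WT MN array 1 with LY3201 (-0.86, adjusted p = 0.0103). Axin2 in WT MN, below background too (0.34 ± 0.14, adjusted p = 0.272), passed without WT MN array 1 with LY3201 (0.58), a fit that leaves 1 such array. The LY3201 effect was called different between the lines for 0 of the 32 genes at each stage, against 0.499% of all tested genes in NPC, 0% in mDPC and 0.63% in MN. At an unadjusted p under 0.05 there were 2, 3 and 6.

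**Figure D5:**
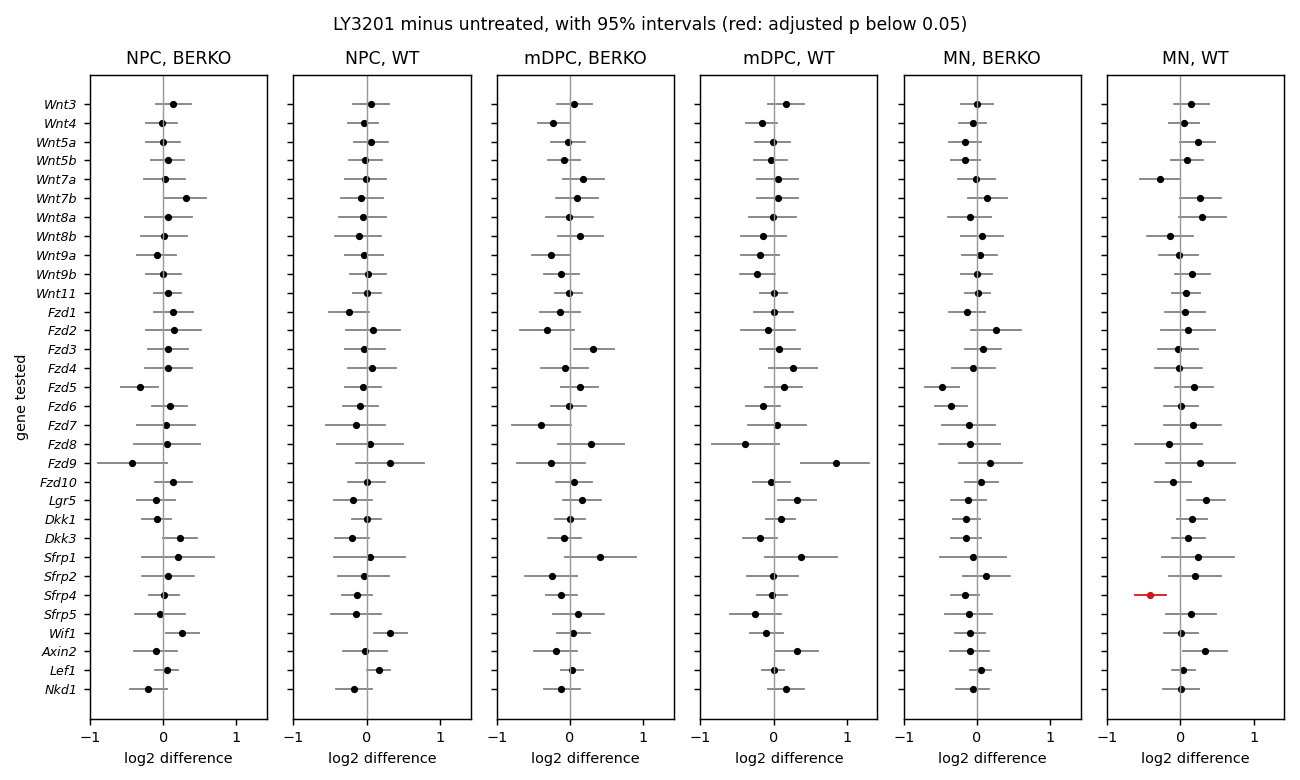
LY3201 minus untreated difference (log2) of each of the 32 tested Wnt genes (points) with its 95% confidence interval (lines) in the 6 comparisons by stage and line. Differences run from -0.48 (Fzd5, BERKO MN) to 0.85 (Fzd9, WT mDPC), and Sfrp4 in WT MN (-0.41) is the 1 that passed the test.

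Other genes of the pathway were counted from a list of 67, of which 61 had a cluster and 57 were tested. Between the lines, 1 was higher and 5 lower in BERKO mESC, 8 and 10 in NPC, 8 and 7 in mDPC and 9 and 8 in MN. That is 10.5%, 31.6%, 26.3% and 29.8% of those tested, beside 4.21%, 15.7%, 13.8% and 20.8% of all tested genes at these stages. Porcn, the enzyme that attaches the lipid Wnts need for secretion, was lower in BERKO in each of the 7 comparisons of the lines. It averaged 9.85 in BERKO mESC and 11.52 in WT mESC, and the differences were -1.67 ± 0.11 in mESC, -0.96 ± 0.11 in NPC, -1.22 ± 0.11 in mDPC and -1.54 ± 0.10 in MN. With LY3201 they were -0.92 ± 0.11, -1.20 ± 0.11 and -1.30 ± 0.11. Draxin, a secreted inhibitor and axon guidance cue, was lower in BERKO NPC (9.94, against 11.63 in WT NPC, -1.69 ± 0.17) and higher in BERKO MN (8.40, against 6.91 in WT MN, 1.49 ± 0.16). Lgr4, the relative of Lgr5, was lower in BERKO mDPC (6.59, against 7.81 in WT mDPC, -1.22 ± 0.15). Frzb, a secreted inhibitor related to the Sfrp proteins, was higher in BERKO NPC (1.19 ± 0.16), and so was Myc, a target of beta-catenin among many other inputs (1.39 ± 0.08).

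Along the stages, the same list gave 29 higher and 18 lower in BERKO and 30 higher and 16 lower in WT from mESC to NPC. These are 82.5% of the tested list in BERKO and 80.7% in WT, beside 63.5% and 62.9% of all tested genes. The cargo receptor Wls, which carries Wnts to the cell surface, rose by 5.40 in BERKO and 5.04 in WT, and Draxin by 5.69 in BERKO and 7.81 in WT. Ndp, which encodes norrin, a ligand of Fzd4, rose by 5.08 in BERKO and 5.60 in WT. From NPC to mDPC, 9 were higher and 22 lower in BERKO, and 9 and 21 in WT (54.4% in BERKO and 52.6% in WT, beside 35.4% and 30.4%). From mDPC to MN, 13 were higher and 25 lower in BERKO, and 13 and 20 in WT (66.7% in BERKO and 57.9% in WT, beside 50.9% and 42%). Lgr4 rose by 3.85 in BERKO and 2.66 in WT at that step, and Draxin fell by 3.83 in BERKO and 5.33 in WT.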

How the data were processed

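Per the labels, each sample gave 150 ng of RNA for its Clariom D (MTA 1.0) array. The deposited values are log2 expression values that the authors made with SST-RMA in Affymetrix Expression Console 1.4, per the labels, and no further normalization was applied. The submitters' processing notes also name the Transcriptome Analysis Console and RMA, without versions. The genome build behind the clusters is not given in the sources used here. Platform annotation named 30604 clusters with 1 symbol, 2146 with several and 33206 with none, and 827 symbols were updated through RefSeq (GRCm38.p6).

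Arrays were grouped by stage, line and treatment into 14 groups. limma 3.58.1 in R 4.3.3 fitted a mean per group (15 residual degrees of freedom, prior 3.303) to genes above the array median in at least 2 arrays. Contrasts gave the line, step and LY3201 effects and their differences, with Benjamini-Hochberg adjustment over all tested genes. Array number limits precision. A level above the 95th percentile of negative controls was set against one below it as a bound on the fold, taken from that percentile.

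The genes, the lists and the tests were chosen with earlier results of these data known. Genes whose highest group mean exceeded that percentile on every array were described in full, of the rest ranges and called genes, with up to 6 rises and 6 falls per comparison. From the other pathway genes, up to 4 per comparison were named, those with the largest change among called ones. Alternatives were no filter, a stricter filter, quantile normalization, a trended robust prior, the compared groups alone, means over clusters (which leaves the Wnt genes, with 1 cluster each, as they are), same-numbered arrays averaged, and each array left out. Figures were drawn with matplotlib 3.10.9 in Python 3.11.15.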

Additional observations from a re-analysis of the deposited data

Results flagged for a closer look

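The lines differed in a step between stages, by a test of the difference itself, for the following genes. Each value is the log2 step in BERKO minus the log2 step in WT. From mESC to NPC, the difference was -1.11 for Sfrp1, -1.03 for Nkd1, -0.71 for Lef1, -0.66 for Dkk3, -0.50 for Wnt5a and 0.75 for Lgr5. From NPC to mDPC, it was -1.91 for Fzd9, -1.03 for Lgr5, 0.34 for Lef1, 0.51 for Sfrp4, 0.58 for Wnt5a, 0.62 for Dkk3, 0.84 for Nkd1 and 0.95 for Fzd6. From mDPC to MN, it was -1.11 for Sfrp4, 0.85 for Fzd6, 0.98 for Lgr5, 1.58 for Dkk3 and 2.02 for Fzd9. Lef1 and Sfrp4 lay below background at every stage, and Wnt5a in all but 2 arrays. The groups behind the Fzd6 difference from NPC to mDPC and both earlier Dkk3 differences were below background as well. Steps that follow each other use the same arrays of the middle stage, so a high or low stage enters both with opposite sign. Groups held 2 or 3 arrays, so a fit with 1 left out mostly rests on a lone array and cannot show which array is outlying. Such fits were run. The differences held in every fit that tested them for Lef1 and Nkd1 from mESC to NPC. From NPC to mDPC they held for Fzd6, Fzd9, Lgr5 and Nkd1, and from mDPC to MN for all genes listed. The others were lost in some fits.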

How the results depend on the processing

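Each call of a single gene kept its direction under every alternative run: of 1627 such repeats, means over clusters left aside, 1387 kept their side of the threshold, 240 lost it and 0 turned round. Counts of called Wnt genes that moved by over 1.5 times are as follows. With the stricter filter, which tests 13 of the genes, the counts were 0 for the lines in mESC, 12 in BERKO and 12 in WT for mESC to NPC, 8 in BERKO and 10 in WT for mDPC to MN, 1 for LY3201 in BERKO MN, 0 in WT MN and 1 for the difference of the LY3201 effects in MN. LY3201 in WT MN gave 0 without a filter, with quantile normalization and with the compared groups alone. With the compared groups alone, the lines gave 0 in mESC, 4 in MN and 4 in MN with LY3201, and the step from NPC to mDPC differed between the lines for 4. With same-numbered arrays averaged, the lines gave 0 in mESC.

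With each array left out in turn, the counts for the lines ranged from 0 to 1 in mESC, 4 to 7 in NPC, 2 to 5 in mDPC and 4 to 10 in MN, and with LY3201 from 3 to 5, 5 to 6 and 4 to 10. Those for differences of steps ranged from 3 to 5, 5 to 7 and 5 to 7. Steps ranged in BERKO from 20 to 22, 10 to 14 and 12 to 19, and in WT from 20 to 21, 11 to 13 and 13 to 17. LY3201 counts ranged from 0 to 1 in BERKO MN, in WT MN and in their difference, and were 0 elsewhere. A lone array left in a group is assumed to vary like the other groups. Genes held under all of these where tested were Dkk3 and Nkd1 in NPC, Fzd9 and Sfrp4 in mDPC and Dkk3 and Fzd6 in MN. No paired analysis was possible because the groups compared share fewer than 2 title numbers: BERKO MN and WT MN with LY3201 share the number 10, whose meaning the labels do not give, and no other groups share one. Signal near background limits most of the 42 genes. Of these, 29 never exceeded it in their own array, all 19 ligands but Wnt5a among them. Wnt5a, Dkk3 and Axin2 exceeded it in 2, 4 and 7 of 29 arrays, without a group mean above the percentile of every array.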
